A study of Homo sapiens with 14 samples.

Results

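The genes examined here form the cyclin D, CDK inhibitor and RB step of the cell cycle. They are CDKN2A, CDKN2B, CDKN2C, RB1, RBL1, CCND1, CCND2, CCND3, CDK4 and CDK6, and were chosen by name. All 10 were found among the 58440 genes of the deposited files. They were examined in 14 RNA-seq libraries of HEK-293T cells, Jurkat cells and their mixtures. HEK-293T cells derive from human embryonic kidney and carry the SV40 large T antigen, a viral protein that binds RB1, and Jurkat is a line from a human T cell leukemia. The mixtures held 100%, 80%, 60%, 50%, 40%, 20% or 0% HEK cells, with Jurkat cells making up the rest of 1000000 cells, and 2 libraries were made of each. No cells were treated and no gene was edited. The labels call the libraries of a mixture technical replicates, so p-values measure the spread between such replicates. Cells were harvested 2 days after passage, mRNA was captured with oligo-dT beads, and a fixed volume of ERCC spike-ins, which are synthetic RNAs, was added.

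In a dividing cell, D cyclins bind CDK4 or CDK6, and the active kinases phosphorylate RB1 and its relatives RBL1 and RBL2, the pocket proteins. Unphosphorylated pocket proteins hold back E2F factors, which drive the genes of DNA synthesis. The INK4 proteins, encoded by CDKN2A, CDKN2B, CDKN2C and CDKN2D, bind CDK4 and CDK6 and block their pairing with D cyclins. CDKN2A also encodes ARF, an unrelated protein read in another frame, which binds the ubiquitin ligase MDM2. Loss of the CDKN2A region is frequent in T cell leukemia.

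Depth ranged from 4468822 to 28303668 gene counts, and 3 counts corresponded to between 0.106 and 0.671 CPM, which are counts scaled to equal totals over genes. Such limits and the counting intervals below leave out all error but that of counting, because copies made by PCR carried no marks. The 11 Jurkat markers, among them CD3D and PTPRC, summed to between 2499 and 2930 CPM in pure Jurkat libraries and to between 4.58 and 8.36 CPM in pure HEK libraries, and all 11 were called higher in Jurkat. The 8 HEK markers, among them KRT18 and NEFM, summed to between 1357 and 1548 CPM in pure HEK and to between 23.4 and 41.8 CPM in pure Jurkat, and all 8 were called higher in HEK. Of the markers of other blood cells, CD79A was called higher in Jurkat at 6.04 ± 1.26 CPM (SD, n = 2), and MS4A1, CD14 and LYZ were too low to test. The file names divide the libraries into a set of 8, which holds both pure Jurkat libraries, and a set of 6, which holds both pure HEK libraries. What the sets mean is not stated, and in the pure libraries line and set cannot be told apart.

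Promoter windows of 300 bases, from 250 before to 50 after a transcript start, were taken from RefSeq (GRCh38.p14). They matched 8 of the 10 genes, in 14 windows; CCND1 and CCND2 had no entry. The windows were searched on both strands for an E2F motif, as any of TTTCCCGC, TTTCGCGC, TTTGCCGC and TTTGGCGC, and for the E-box CACGTG. Capitals mark the matches, and no E2F match overlapped an E-box. Both CDKN2A windows are shown because 1 gene row of the files adds up RNA from both starts. The first lies at chr9:21995275-21995574 (minus strand), the start of the ARF transcript, and the second at chr9:21974808-21975107 (minus strand), the start of the INK4 transcript. RBL1 (chr20:37095948-37096247, minus strand) is shown as the member with E2F matches, and CDK4 (chr12:57752261-57752560, minus strand) as the member with the most E-boxes.
CDKN2A, ARF start: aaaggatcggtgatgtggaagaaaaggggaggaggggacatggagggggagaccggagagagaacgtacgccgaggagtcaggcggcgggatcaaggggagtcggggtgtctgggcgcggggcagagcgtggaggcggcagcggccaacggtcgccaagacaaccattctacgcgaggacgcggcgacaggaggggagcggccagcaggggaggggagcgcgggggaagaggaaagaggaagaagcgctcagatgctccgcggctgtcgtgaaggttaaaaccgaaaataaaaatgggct
CDKN2A, INK4 start: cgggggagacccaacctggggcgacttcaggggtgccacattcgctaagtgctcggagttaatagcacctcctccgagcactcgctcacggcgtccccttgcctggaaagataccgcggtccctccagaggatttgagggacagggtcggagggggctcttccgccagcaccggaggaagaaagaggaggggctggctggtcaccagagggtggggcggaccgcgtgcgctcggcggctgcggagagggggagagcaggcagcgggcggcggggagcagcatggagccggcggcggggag
RBL1: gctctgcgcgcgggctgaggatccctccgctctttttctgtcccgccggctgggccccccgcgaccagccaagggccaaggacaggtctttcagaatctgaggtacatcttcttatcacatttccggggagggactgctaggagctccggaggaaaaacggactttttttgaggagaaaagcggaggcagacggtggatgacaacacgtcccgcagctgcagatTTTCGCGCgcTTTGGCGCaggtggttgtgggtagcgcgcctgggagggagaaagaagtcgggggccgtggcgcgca
CDK4: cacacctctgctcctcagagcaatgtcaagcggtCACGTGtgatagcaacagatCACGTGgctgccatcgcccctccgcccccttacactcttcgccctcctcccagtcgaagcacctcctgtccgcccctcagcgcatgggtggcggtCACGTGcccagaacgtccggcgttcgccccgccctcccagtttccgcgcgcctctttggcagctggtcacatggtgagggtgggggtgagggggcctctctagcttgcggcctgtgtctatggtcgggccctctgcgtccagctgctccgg
RBL1 held 2 E2F matches, from -26 to -19 and from -16 to -9 with the transcript start counted as 0. No other member window held an E2F match, against 3.31% of all 35116 windows, and the RB1 window (chr13:48476200-48476499, plus strand) lies inside the gene and not at the start of its annotated span. CDK4 held 3 E-boxes, which began at -216, -196 and -101. E-boxes were also found in windows of CDKN2C and CDK6, and in 7.26% of all windows. Such a match describes letters and is not evidence of binding.

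Among the INK4 genes, CDKN2A and CDKN2B were read almost only in HEK cells, while CDKN2C was read in both lines. CDKN2A (ENSG00000147889.17, chromosome 9 from 21967752 to 21995301, minus strand) had 177.6 and 154.7 CPM in the pure HEK libraries and 0.671 and 0.161 CPM in the pure Jurkat libraries. The Jurkat values rest on 3 counts and 1 count, against 4024 counts in HEK. The 2 lines did not overlap, and the ratio of pooled CPM was 436 (95% exact conditional interval 170 to 1602). In the edgeR quasi-likelihood fit, adjusted after Benjamini and Hochberg, the log2 difference of HEK minus Jurkat was 8.55 (standard error 0.47, adjusted p = 0.00064). The fit rescaled library totals by the TMM method, so its log2 differences can depart from ratios of CPM. Its scale is called the CPM scale below. The fitted value depends on the few Jurkat counts, with 9.77 when the first Jurkat library was left out and 7.74 when the second was. Reads from the ARF and the INK4 transcript were not separated. Barcoded samples had been pooled before sequencing, and whether the traces in Jurkat came from other samples was not tested.

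CDKN2B (ENSG00000147883.10, chromosome 9 from 22002903 to 22009305, minus strand), which encodes the INK4 protein p15, had 2.88 and 4.33 CPM in HEK libraries. In Jurkat it had 1 count in the first library and 0 in the second. The pooled ratio was 40.3 (interval 7.06 to 1610), a wide interval that comes from the single Jurkat count. The log2 difference of 5.04 (standard error 0.92, adjusted p = 0.011) was not called without the second HEK library (4.69, adjusted p = 0.093), and was 3.82 (adjusted p = 0.039) without the second Jurkat library. CDKN2B-AS1, the antisense RNA that overlaps CDKN2A and CDKN2B on the opposite strand, had 1.91 and 2.24 CPM in HEK and 0 counts in both Jurkat libraries. In HEK it was at least 7.52-fold higher, taking 3 counts over both Jurkat libraries (adjusted p = 0.012).

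CDKN2C (ENSG00000123080.10, chromosome 1 from 50960745 to 50974634, plus strand), the gene of the INK4 protein p18, had 31.7 and 33.7 CPM in HEK and 51.5 and 35.9 CPM in Jurkat. The lines did not overlap, but the Jurkat libraries differed from each other by more than the nearest HEK and Jurkat values did. Its log2 difference was -0.64 (standard error 0.25, adjusted p = 0.095). It was called without the second Jurkat library (-0.86, adjusted p = 0.043) and in the fit to all 14 libraries (-0.65, adjusted p = 0.043), but not without the first Jurkat library (-0.37, adjusted p = 0.22) or by DESeq2 (-0.60, adjusted p = 0.22). CDKN2D, the remaining INK4 gene and no member of the set, had 6.14 and 5.74 CPM in HEK and 39.8 and 36.8 CPM in Jurkat. Its log2 difference was -2.92 (adjusted p = 0.001), and 0.63 on the spike-in scale described below (adjusted p = 0.26).

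Per length, the make-up of the INK4 genes differed between the lines. TPM are transcript levels divided by length and scaled to a fixed total, although oligo-dT priming reads mainly the 3′ end, so that a level per length may be uneven between genes. CDKN2A made up 92.1% and 91.1% of the summed INK4 TPM in HEK and 1.97% and 0.800% in Jurkat. In Jurkat, CDKN2D made up 53% and 59.0% and CDKN2C 44.9% and 40.2%. By counts, CDKN2C had 55.8% and 49.3% and CDKN2D 43.2% and 50.5%, so CDKN2D led in both libraries by TPM, and by counts the order differed between the 2 libraries. The summed TPM of the 4 genes were 275 and 241 in HEK and 52.3 and 42.5 in Jurkat.

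The genes next to CDKN2A on the short arm of chromosome 9 were read in order along the chromosome, from 20000000 to 24000000. Of 77 genes in this stretch, 9 had a mean of at least 3 CPM in either line, a window and limit chosen after the values were seen. MLLT3 (39.1% of the HEK level) and FOCAD (39.5%) were read in Jurkat, and HACD4, an enzyme of fatty acid elongation, was higher in Jurkat at 35.3 and 12.1 CPM than in HEK at 3.70 and 3.03 CPM. From KLHL9 onwards, the other genes of these 9 were low in Jurkat. KLHL9, an adaptor of a ubiquitin ligase, had 3 and 6 counts in Jurkat and 1.25% of the HEK level. MTAP, the methionine salvage enzyme beside CDKN2A, had 1 and 4 counts and 0.518%. CDKN2A stood at 0.250% and CDKN2B at 3.10%. ELAVL2, an RNA-binding protein on the far side, had 8 and 2 counts and 3.80%. The remaining gene of the 9, ENSG00000279670, lies within MTAP and had 0 counts in both Jurkat libraries.

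**Figure D1:**
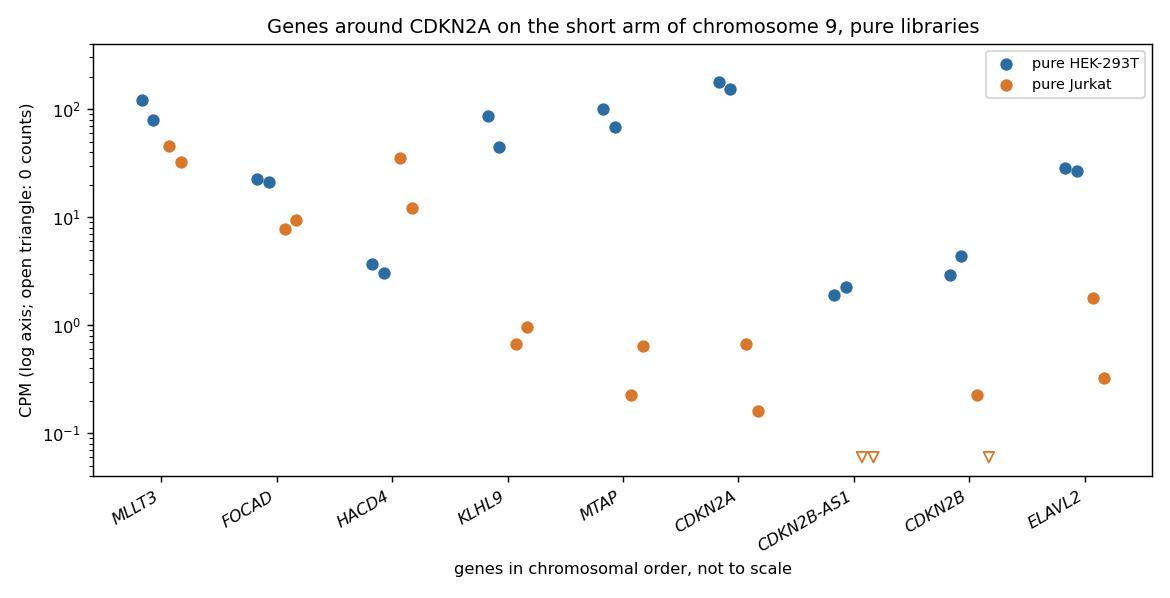
CPM on a log axis of the genes around CDKN2A, in chromosomal order and not to scale, in the 2 pure HEK-293T (blue) and 2 pure Jurkat libraries (orange), with open triangles for 0 counts. MLLT3, FOCAD and HACD4 have more than 7 CPM in each Jurkat library, while KLHL9 to ELAVL2 have less than 2 CPM.

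Of 10 neighbours listed for this region, 7 could be tested, 6 were called higher in HEK and 1 in Jurkat, beside 24.2% and 19.0% of all genes tested, and the median log2 difference was 2.91 with CDKN2B-AS1 at its bound. The largest was MTAP (pooled ratio 171, interval 73.2 to 528, adjusted p = 0.00077), followed by KLHL9 (72.1, interval 37.9 to 158, adjusted p = 0.0014). HACD4 had a log2 difference of -3.03 (adjusted p = 0.011), and 0.52 on the spike-in scale (adjusted p = 0.38). RNA counts do not give DNA copy number, which was not measured.

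The leading D cyclin differed between the lines. CCND1 (ENSG00000110092.3, chromosome 11 from 69641156 to 69654474, plus strand) had 11.3 and 13.0 CPM in HEK, and 3 counts and 1 count in Jurkat. Its pooled ratio was 32.9 (interval 12.7 to 121) and its log2 difference 4.77 (standard error 0.52, adjusted p = 0.0025). With the first or the second Jurkat library left out the log2 difference of CCND1 was 6.00 or 3.97, and it was called both times. CCND2 (ENSG00000118971.7, chromosome 12 from 4269771 to 4305353, plus strand) had 58.8 and 52.6 CPM in HEK and 2.91 and 3.22 CPM in Jurkat, with 33 counts in Jurkat in all. Its log2 difference was 3.95 (standard error 0.25, adjusted p = 0.00073). CCND3 (ENSG00000112576.12, chromosome 6 from 41934934 to 42050357, minus strand), the D cyclin that developing T cells depend on, had 13.8 and 15.6 CPM in HEK and 66.0 and 57.2 CPM in Jurkat. No library of either line overlapped the other in these 3 genes. How many of all genes were separated in this way was not counted, so this only describes the 3. The log2 difference of CCND3 was -2.29 (standard error 0.22, adjusted p = 0.0018) on the CPM scale, while it was 1.23 (adjusted p = 0.020) on the spike-in scale.

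By TPM, CCND3 made up 98.5% and 98.4% of the D cyclins in pure Jurkat. In pure HEK, CCND1 led with 46.2% and 49.9%, followed by CCND2 with 31.2% and 25.9% and CCND3 with 22.5% and 24.2%. In HEK, CCND2 and CCND3 were closer to each other in the second library than the 2 libraries were in CCND2. By counts, which are not divided by length, CCND2 led in HEK with 70.1% and 64.8%, and CCND1 had 13.5% and 16%. CCND3 led in Jurkat on both scales, with 94.9% and 94.4% by counts. The summed TPM of the D cyclins were 36.0 and 39.0 in HEK and 38.1 and 32.4 in Jurkat, so these values overlapped between the lines.

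The 2 kinases also went in opposite directions. CDK4 (ENSG00000135446.16, chromosome 12 from 57747727 to 57756013, minus strand) had 121.6 and 157.5 CPM in HEK and 54.2 and 47.3 CPM in Jurkat. Its log2 difference was 1.24 (standard error 0.24, adjusted p = 0.012), a call that was lost without the second HEK library (1.06, adjusted p = 0.083). CDK6 (ENSG00000105810.9, chromosome 7 from 92604921 to 92836573, minus strand) had 178.5 and 170.0 CPM in HEK and 4828 and 3473 CPM in Jurkat. The log2 difference of CDK6 was -4.80 (standard error 0.28, adjusted p = 0.00064), which is 27.8-fold higher in Jurkat after TMM scaling. The ratio of its pooled CPM, HEK over Jurkat, was 0.0429 (interval 0.0415 to 0.0443). CDK6 is the member that also stayed higher in Jurkat on the spike-in scale (-1.24, adjusted p = 0.013). By TPM, CDK4 made up 88.6% and 92.2% of the sum of both kinases in HEK, and CDK6 89.3% and 87.1% in Jurkat. By counts, CDK4 made up 40.5% and 48.1% in HEK, so which kinase led in HEK depends on the scale, whereas CDK6 led in Jurkat on both. The summed TPM were 132 and 185 in HEK and 451 and 326 in Jurkat.

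**Figure D2:**
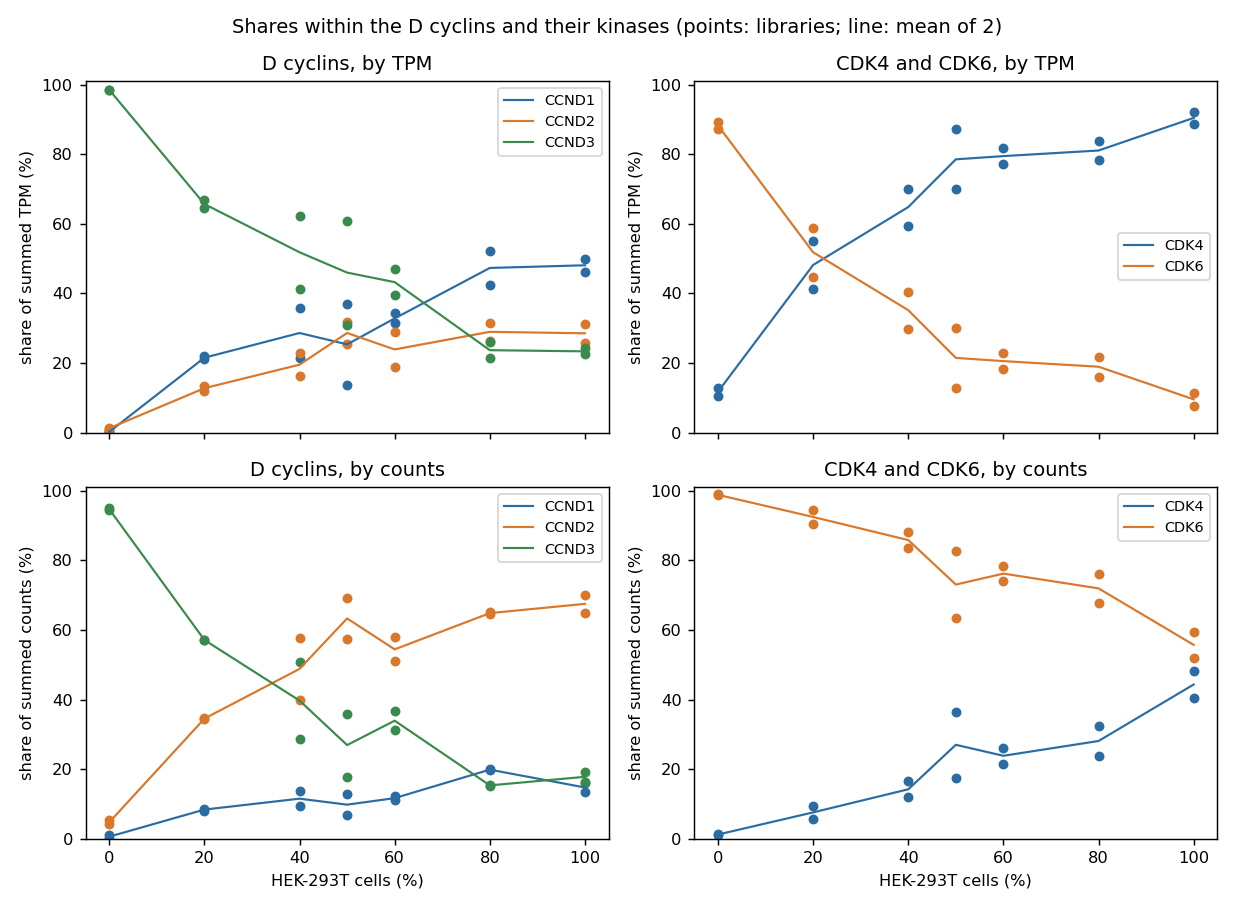
Share (%) of each D cyclin (left) and of CDK4 and CDK6 (right) in the summed TPM (top) or counts (bottom) of its family, against the percentage of HEK-293T cells, with points for libraries and lines for means of 2. CCND3 and CDK6 lead in pure Jurkat on both scales, while in pure HEK CCND1 and CDK4 lead by TPM, and CCND2 and CDK6 by counts.

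The pocket protein RB1 (ENSG00000139687.14, chromosome 13 from 48303744 to 48599436, plus strand) had 22.4 and 27.6 CPM in HEK and 145.9 and 207.3 CPM in Jurkat. Both Jurkat libraries lay above both HEK libraries, although the Jurkat libraries differed from each other by more than the whole HEK level. The log2 difference of RB1 was -3.04 (standard error 0.29, adjusted p = 0.0018) on the CPM scale, and 0.47 (adjusted p = 0.36) on the spike-in scale. RBL1 (ENSG00000080839.11, chromosome 20 from 36996349 to 37095997, minus strand), whose protein is p107, had 21.3 and 21.0 CPM in HEK and 19.0 and 15.5 CPM in Jurkat. Its log2 difference was 0.07 (standard error 0.22, adjusted p = 0.82), while the ratio of its pooled CPM was 1.24 (interval 1.05 to 1.48). RBL2, the third pocket protein gene and no member, had a log2 difference of -0.16 (adjusted p = 0.71). By TPM, RB1 made up 35.5% and 46.2% of the 3 pocket protein genes in HEK and 83.2% and 94.8% in Jurkat, and by counts 31.6% and 37.1% in HEK and 74.0% and 85.8% in Jurkat.

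In all, 8 of the 10 genes were called between the pure lines, 5 higher in HEK and 3 higher in Jurkat on the CPM scale, against 9 called on the spike-in scale, 8 higher in HEK and 1 in Jurkat. Over the 15794 genes tested, 43.2% were called on the CPM scale, 24.2% higher in HEK and 19.0% higher in Jurkat. On the spike-in scale, 15125 of the 15794 genes were called, 14616 higher in HEK and 509 higher in Jurkat. All 10 members passed the filter on low counts. The median log2 difference was 0.65 over the members and 0.07 over all genes tested. The calls rest on Benjamini-Hochberg adjustment. With Bonferroni's, edgeR called 0 of the 10 and 65 of the 15794 genes. At an unadjusted p under 0.05 edgeR had 9 of the 10 and 8325 of the 15794 genes. DESeq2 with Benjamini-Hochberg adjustment called 8 of the 10, and 5819 of the 31686 genes it fitted.

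CPM gives shares of RNA, whereas the spike-ins allow a comparison at equal cell numbers. Pure HEK libraries had 147 and 97.3 gene counts per ERCC count, and pure Jurkat libraries 12.1 and 12.3. With spike-in totals as library sizes, the median log2 difference of all genes was 3.61, and 96.6% of calls were higher in HEK, against 56.0% on the CPM scale. Relative to this median, CDKN2A was at 8.50, CDK4 at 1.14, RBL1 at 0.01, CDKN2C at -0.71, CCND3 at -2.38, RB1 at -3.14 and CDK6 at -4.85. Taken as such, the differences of RB1, CCND3 and CDKN2C (2.90, adjusted p = 2.0e-07) lay above 0 on the spike-in scale and below 0 on the CPM scale. Per 1000 ERCC counts, RB1 had 3.31 and 2.69 counts in HEK and 1.76 and 2.55 in Jurkat. CDK6 had 26.3 and 16.6 counts in HEK and 58.3 and 42.8 in Jurkat, without overlap.

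**Figure D3:**
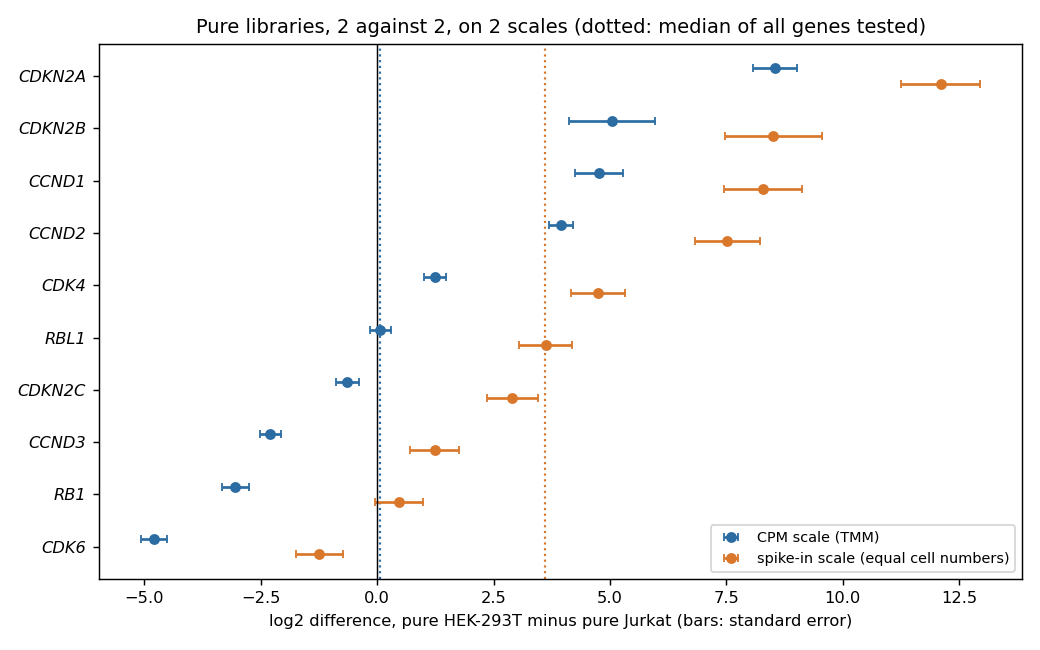
Log2 difference of pure HEK-293T minus pure Jurkat (2 libraries each) of the 10 genes, with standard errors, on the CPM scale (blue) and on the spike-in scale (orange), with dotted lines at the median of all genes tested (0.07 and 3.61). The change of scale moves all genes by nearly the same amount, so the order of the genes stays the same by construction. RB1, CCND3 and CDKN2C lie below 0 in CPM and above 0 by spike-ins.

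Per length, CDKN2A had the highest level in pure HEK (237 ± 23.9 TPM, SD, n = 2), followed by CDK4 (144 ± 37.9 TPM). Next came CCND1 (18.1 ± 1.99 TPM), CDKN2C (16.1 ± 0.361 TPM), CDK6 (14.8 ± 0.396 TPM), CCND2 (10.7 ± 0.820 TPM), CCND3 (8.77 ± 0.948 TPM), RB1 (7.44 ± 1.43 TPM), RBL1 (3.80 ± 0.0990 TPM) and CDKN2B (1.29 ± 0.481 TPM). Among neighbours in this order, the libraries of CCND3 and RB1 overlapped, and CCND1 and CDKN2C differed by less than the SD of CCND1. In pure Jurkat, CDK6 was highest (343 ± 83.8 TPM), followed by RB1 (120 ± 63.5 TPM), CDK4 (45.0 ± 4.34 TPM), CCND3 (34.7 ± 3.96 TPM), CDKN2C (20.3 ± 4.54 TPM) and RBL1 (3.72 ± 0.672 TPM). CCND2, CDKN2A, CCND1 and CDKN2B were all under 1.1 TPM in each Jurkat library. The RB1 libraries in Jurkat had 74.9 and 164.7 TPM, a wider spread than in CPM. The order depends on the scale. By CPM, not divided by length, CDK6 had the highest mean in pure HEK (174.2), before CDKN2A (166.2) and CDK4 (139.6). In CPM the libraries of CDKN2A overlapped those of CDK6 and those of CDK4.

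Along the mixtures, the level of each gene was set beside the HEK share of RNA. The share of RNA from HEK cells, estimated from 15955 genes, was 91.9% and 96.5% in the 80% mixture, 95.2% and 92.7% in the 60% mixture, 82.4% and 95.2% in the 50% mixture, 76.5% and 88.3% in the 40% mixture, and 65.5% and 67.7% in the 20% mixture. In bulk samples, fewer cells of a type and less RNA per cell cannot be told apart from the level of a gene alone. At 20% HEK cells, CDKN2A had 85.8 and 106.8 CPM, which is 57.9% of its pure HEK mean, and CCND1 stood at 57.3% and CCND2 at 51.5%. At the same mixture, CDK6 had 938 and 1517 CPM, or 29.6% of its pure Jurkat mean, RB1 had 104.5 and 104.0 CPM, or 59.0%, and CCND3 had 44.8 and 50.1 CPM, or 77.0%. RB1 had 72.9 and 84.4 CPM in the 40% mixture, 53.5 and 50.3 CPM in the 50% mixture, 42.3 and 42.0 CPM in the 60% mixture, and 43.4 and 35.0 CPM in the 80% mixture. CDK6 had 626.5 and 658.8 CPM in the 40% mixture, 397.8 and 255.2 CPM in the 50% mixture, 367.3 and 463.8 CPM in the 60% mixture, and 286.9 and 219.9 CPM in the 80% mixture. The 50% and 60% mixtures overlapped in CDK6 but not in RB1.

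**Figure D4:**
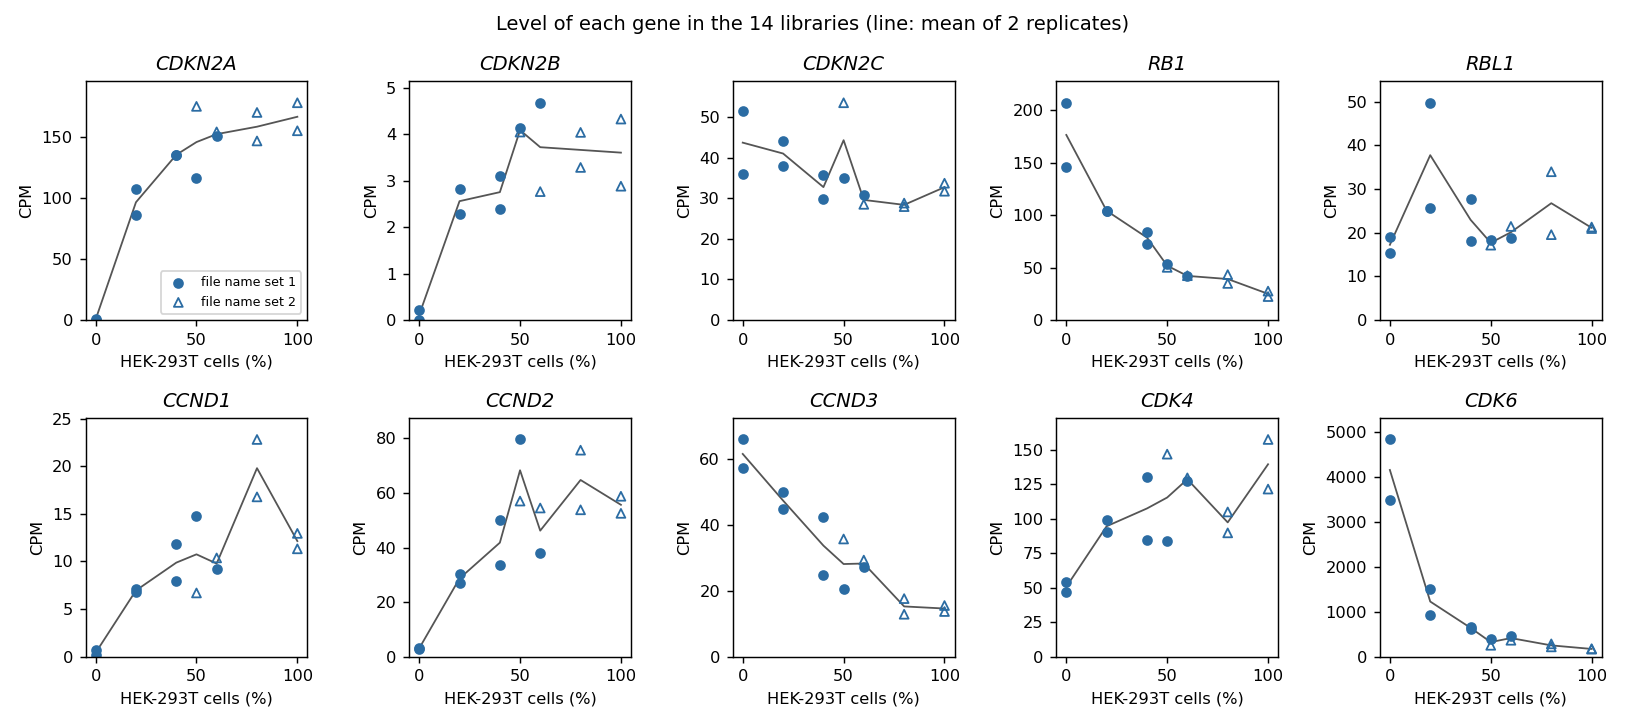
CPM of each gene against the percentage of HEK-293T cells in the 14 libraries, with filled circles for the set of 8 and open triangles for the set of 6 by file name, and lines for means of 2. RB1, CCND3 and CDK6 are lower in pure HEK than in pure Jurkat in CPM, whereas by spike-ins CCND3 is higher in pure HEK and RB1 lies at 0.47 with an adjusted p of 0.36 by edgeR, while CDKN2A, CCND1 and CCND2 are close to 0 in pure Jurkat only.

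The trend with HEK percentage was tested over the 10 mixed libraries, without the pure ones. On the CPM scale, 3 of the 10 genes were called, and all 3 fell as HEK cells rose. Over the 18516 genes tested, 5.47% were called, 0.643% rising and 4.82% falling. The slope over 100 points of HEK percentage was -3.79 for CDK6 (standard error 0.62, adjusted p = 0.0024), -2.64 for CCND3 (0.41, adjusted p = 0.0014) and -2.60 for RB1 (0.43, adjusted p = 0.0026), in log2 units of edgeR's quasi-likelihood fit. With spike-in scaling the slopes were -1.02 for CDK6 (adjusted p = 0.34), 0.46 for CCND3 (adjusted p = 0.66) and 0.29 for RB1 (adjusted p = 0.78), while the median of all genes moved from 0.05 to 3.05. Their standard errors were wider on this scale, at 1.015, 0.971 and 0.978. Gene counts per ERCC count differed between libraries of a mixture. They were 46.6 and 123 at 80%, 29.9 and 56.1 at 60%, and 44.6 and 25.5 at 50%. At 40% they were 44.8 and 34.3, and at 20% 17.4 and 28.0. The genes high in HEK were not called, with slopes of 2.23 for CCND1 (adjusted p = 0.078), 1.74 for CCND2 (adjusted p = 0.19), 1.07 for CDKN2A (adjusted p = 0.12), 0.91 for CDKN2B (adjusted p = 0.44) and 0.13 for CDK4 (adjusted p = 0.91). CDKN2C (-0.94, adjusted p = 0.23) and RBL1 (-0.89, adjusted p = 0.54) were not called either. DESeq2 called CDKN2A and CCND1 as well (adjusted p = 0.028 and 0.048).

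With the file name set as a covariate, CCND3 was still called (-2.92, adjusted p = 0.021), while RB1 (-2.21, adjusted p = 0.13) and CDK6 (-2.85, adjusted p = 0.16) were not. Mixtures of 80% HEK cells were all in the set of 6 and those of 40% and 20% in the set of 8. Within the 6 mixed libraries of the set of 8, the slopes were -4.12 for CDK6 (adjusted p = 0.075), -3.26 for RB1 (adjusted p = 0.097) and -2.62 for CCND3 (adjusted p = 0.25). Within the 4 mixed libraries of the set of 6, they were 0.0016 for CDK6 (adjusted p = 1.0), -0.36 for RB1 (adjusted p = 0.79) and -3.56 for CCND3 (adjusted p = 0.059), over a range from 50% to 80% HEK cells. The 60% and 50% mixtures had 1 library in each set. At 60%, RB1 had 42.3 CPM in the set of 6 and 42.0 in the set of 8, CCND3 29.4 and 27.3, and CDK6 367.3 and 463.8. At 50%, RB1 had 50.3 and 53.5 CPM, CCND3 35.8 and 20.6, and CDK6 255.2 and 397.8. In a separate fit the HEK share of RNA took the place of HEK percentage as predictor. In that fit, RB1 (-4.87, adjusted p = 0.0041) and CDK6 (-7.16, adjusted p = 0.0036) were called. CCND3 (-3.20, standard error 1.15, adjusted p = 0.12) was not called. These slopes are over RNA share, so their sizes cannot be set beside those over HEK percentage.

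Each mixed library was compared with an additive level, the sum of the pure levels weighted by the RNA shares. The log2 ratio of observed to additive level over the 10 libraries had a median from -0.51 in CDK6 to 0.57 in CCND3, where all genes tested had a median of -0.03 and a range of -0.61 to 0.38 between the 5th and 95th percentiles. RB1 lay above its additive level in 10 of 10 libraries, from 0.05 to 0.98 with a median of 0.33. With a library left out this median ranged from 0.16 to 0.60, the highest without the second pure Jurkat library. CCND3 lay above in 7 of 10, from -0.51 to 1.08. CDK6 lay from -1.13 to 0.06, and 4 of the 10 libraries were within 0.06 of the additive level. CDKN2A stayed between -0.35 and 0.14, the narrowest range of the members. RBL1 had a median of -0.03, and 1 library of 20% HEK cells stood at 1.33, with 49.8 CPM against 25.8 in the other. These ratios are given as a description, since the shares come from the same libraries. The 10 ratios of a gene also share the error of the same pure means, so they are not separate observations.

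**Figure D5:**
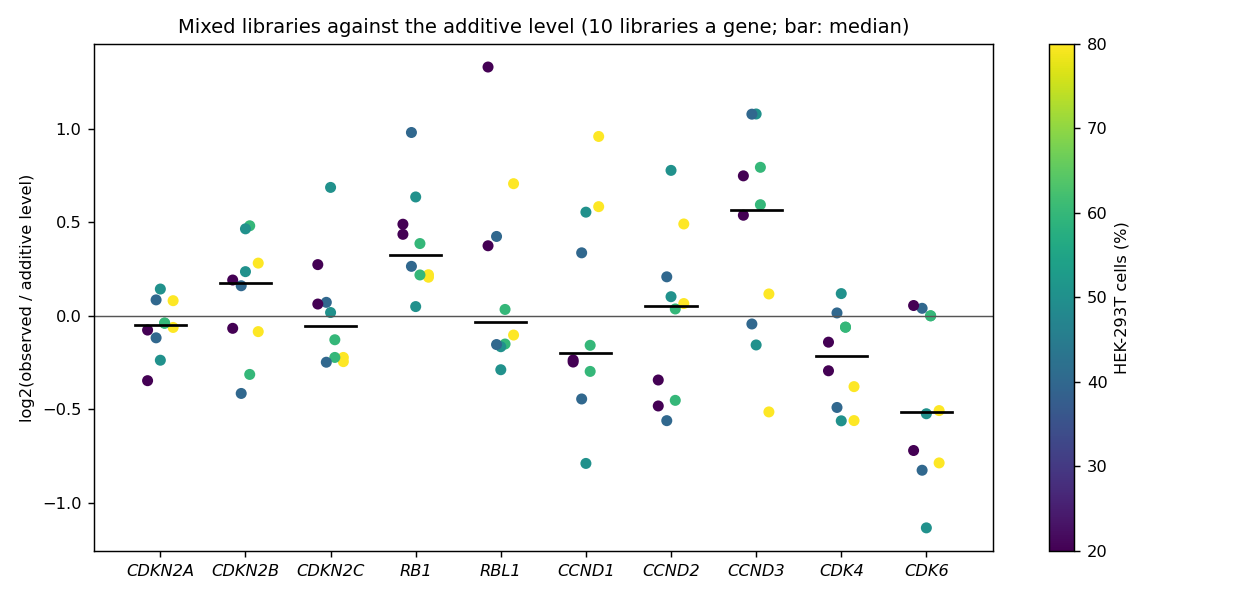
Log2 ratio of observed to additive level of each gene in the 10 mixed libraries, coloured by the percentage of HEK-293T cells, with bars at the medians. All points of RB1 are above 0, CDKN2A has the narrowest range, and RBL1 has 1 library at 1.33.

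Of the other genes of the G1 to S transition, 22 of 23 listed were tested between the pure lines, of which 3 were called higher in HEK and 4 higher in Jurkat, with a median log2 difference of -0.15. Over all genes tested 24.2% were called higher in HEK and 19.0% higher in Jurkat. CDKN1A, an inhibitor of CDK2, had 16.3 and 15.4 CPM in HEK, and 1 and 2 counts in Jurkat (pooled ratio 55.9, interval 19.0 to 272, adjusted p = 0.00083). CCNE1, the cyclin partner of CDK2, was higher in HEK (1.99, adjusted p = 0.0062). CDKN2D and TFDP2, a partner of E2F factors, were higher in Jurkat in CPM (-2.92 and -1.60, adjusted p = 0.001 and 0.017), but lay at 0.63 and 1.86 on the spike-in scale. CDKN1B, which encodes the inhibitor p27, had -0.88 (adjusted p = 0.025; 2.64 by spike-ins), and E2F1 had 0.42 (adjusted p = 0.22). In the mixtures, 1 of the 22 was called, CDKN2D, with a slope of -3.52 (adjusted p = 7.1e-05), beside 5.47% of all genes.

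MDM2, the ligase that ARF binds, had a log2 difference of 0.05 (adjusted p = 0.88), and its relative MDM4 had -0.38 (adjusted p = 0.32). Among 19 E2F target genes, 4 were called higher in HEK and 3 higher in Jurkat, with a median of 0.19, beside 43.2% called and a median of 0.07 over all genes tested. CCNE1 and TK1, a thymidine kinase (1.85, adjusted p = 0.0079), were the largest in HEK. CDK1, the mitotic kinase (-2.30, adjusted p = 0.012), and TYMS, the thymidylate synthase (-1.51, adjusted p = 0.0064), were the largest in Jurkat in CPM, at 1.3 and 2.04 on the spike-in scale. In the mixtures, edgeR and DESeq2 called 0 of the 19 E2F targets, beside 5.47% of all genes by edgeR. At an unadjusted p under 0.05 edgeR had 1 of the 19, beside 3438 of 18516 genes.

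Several members overlap other genes. RCBTB2 and LPAR6 lie within or across RB1 on the opposite strand, with 69.4 and 64.0 CPM and with 6.71 and 8.38 CPM in Jurkat against 3.70 and 2.71 CPM and 0.106 and 0.264 CPM in HEK. CDK6-AS1, opposite CDK6, had 14.9 and 16.1 CPM in Jurkat and 0.212 and 0.391 CPM in HEK. TSPAN31 and MARCHF9 lie opposite CDK4 with 11.3 and 10.3 CPM and 38.4 and 31.6 CPM in HEK. In Jurkat they had 6.41 and 7.18 CPM and 69.8 and 50.3 CPM, where CDK4 had 54.2 and 47.3 CPM. LTO1 lies opposite CCND1 with 14.9 and 15.4 CPM in HEK. It had 6.91 and 6.90 CPM in Jurkat, where CCND1 had 3 counts and 1 count. The libraries kept the strand, but whether the counting used it is not stated, so reads of such pairs may not have been told apart. CCND2-AS1, opposite CCND2, stayed under 1 CPM in all libraries, as did the annotated overlaps of RBL1 and CCND3.

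The genes most like a member over the 14 libraries were found by Pearson's r of log2(CPM + 1), as a description of libraries that share their cells. TPD52L1, SLIT2 and PGAP4 were nearest to CDKN2A (r = 0.996 each), and 1979 of 15793 genes had r over 0.9 with it. ISL1, TENM3 and PIR were nearest to CDKN2B (r = 0.976, 0.976 and 0.975). ENSG00000257151, SCARNA9 and CNR2 were nearest to CDK6 (r = 0.990, 0.988 and 0.987), and CD82, CMAHP and ZNF429 to RB1 (r = 0.988, 0.985 and 0.982).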

How the data were processed

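The authors aligned single-end reads with STAR (2.6.1b) to GRCh38 and ERCC sequences, and RSEM (1.3.1) gave the deposited TPM and the deposited expected counts, the latter without normalization. Between 50.4% and 62.7% of expected counts above 0 were whole. The annotation release is not given in the sources used here. The series table repeats the expected counts and was not used.

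Symbols and coordinates came from GENCODE 44 (57799 of 58440 genes matched). CPM were computed over genes without the 92 ERCC rows. Expected counts were rounded and tested after TMM scaling and filterByExpr with the quasi-likelihood functions of edgeR 4.0.16, 2 against 2 pure libraries, and over 10 mixed libraries against HEK percentage, with Benjamini-Hochberg adjustment at 0.05. DESeq2 1.42.0 was an alternative, as were other scalings and filters, the file name set as covariate, the HEK share of RNA as predictor, and each library left out. Pooled ratios have exact conditional intervals at 95% and shares Wilson intervals. Where a line had 1 to 4 counts a ratio with its interval is given, and a bound of 3 counts was used only at 0. R 4.3.3, Python 3.11.15 and scipy 1.17.1 were used.

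In simulated data of the pure comparison (15489 genes), 50 genes were changed at each fold. Of these, 4% changed 2-fold, 68% changed 4-fold and 98% changed 8-fold were called, with 10 false among 145 calls. In the mixed trend (18345 genes), 0%, 4% and 48% were called, with 4 false among 71. The simulations changed fewer genes than the 6827 and 1012 called in the real fits. Adjustment was therefore stricter in the simulations, and their rates do not carry over to the real fits. The 2 libraries of each mixture differed beyond sampling noise (chi-square per degree of freedom 20.7 to 147), so all were kept. The members and gene lists were chosen with earlier results of these data known. All members are named, and of each list the 2 largest called in each direction, with some regulators set by name. The lists were other G1 to S regulators, genes around ARF, E2F targets, neighbours of CDKN2A, and markers of Jurkat, HEK and other blood cells; some of their genes are not reported here. Nearest genes were sought for the 2 members with the largest called difference in each direction.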

Additional observations from a re-analysis of the deposited data

How the results depend on the processing

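Between the pure lines, 6827 genes and 8 members were called. Spike-in scaling called 15125 genes and Bonferroni's adjustment 65 genes and 0 members. At an unadjusted p under 0.05 in edgeR there were 8325 genes and 9 members. Leaving out each library gave from 3131 to 6227 genes, with 3194 and 3131 without the first and second HEK library, and from 6 to 9 members. With spike-in scaling the log2 differences of CDKN2C (2.90), RB1 (0.47) and CCND3 (1.23) changed sign, and RBL1 ranged from -0.060 to 0.21 with each library left out, the lowest without the second Jurkat library. CDKN2B without the first Jurkat library has 0 Jurkat counts and gave no value.

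Over the mixed libraries, 1012 genes and 3 members were called, with 11.8% of the calls rising. Spike-in scaling gave 13879 genes and 7 members, with 98.4% rising. The file name covariate gave 480 genes and 1 member, and DESeq2 1460 genes and 5 members. With the HEK share of RNA in place of HEK percentage 26% of the calls rose. Only the set of 8 gave 201 genes and 0 members. At an unadjusted p under 0.05 in edgeR this set gave 1932 genes and 4 members. Only the set of 6 gave 609 genes and 1 member, CCND1, with 71.3% rising. These 2 subsets were chosen after seeing the data. Leaving out each library gave from 580 to 1218 genes, with 580 and 643 without the first and second 20% library, and 3 members each time. Slopes that changed sign with spike-in scaling were CDKN2C (2.11), RB1 (0.29), RBL1 (2.03) and CCND3 (0.46). RBL1 was at 2.75 in the set of 6 and ranged from -1.98 to 0.21 with a library left out. CDK4 was at -0.066 with the covariate, at -1.32 in the set of 6, and ranged from -0.056 to 0.36. CDK6 was at 0.0016 in the set of 6. The cause of these changes was not tested.

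Over all alternatives, 82 of 99 log2 differences and 153 of 180 slopes of members kept their direction and their side of the threshold. No paired analysis was possible because the labels give the libraries no shared replicate numbers. Depth limits CDKN2A, CDKN2B and CCND1 in Jurkat, where 3 counts correspond to 0.671 and 0.484 CPM.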
